A study of Mus musculus with 6 samples.

Results

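The transcripts of 35 genes of antioxidant defence and superoxide production were examined in hypoxic primary neonatal mouse cardiomyocytes (NMCMs) treated with β-sitosterol (β-SITO), a plant sterol, or with vehicle. The genes were picked by symbol from the 57010 genes of the deposited count table, with earlier results of these data known, and each symbol matched 1 row. They comprise NRF2 and its targets (13 genes), superoxide and peroxide enzymes (17 genes) and NADPH oxidase subunits (5 genes). All 35 had enough counts to be tested.

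Cells under hypoxia form superoxide, which superoxide dismutases turn into hydrogen peroxide, and catalase, glutathione peroxidases and peroxiredoxins then remove the peroxide. Glutathione and thioredoxin supply the electrons for glutathione peroxidases and peroxiredoxins, though not for catalase, and are kept reduced at the cost of NADPH. The transcription factor NRF2 (Nfe2l2) switches many of these genes on from antioxidant response elements (AREs) when its inhibitor KEAP1 no longer marks it for degradation. NADPH oxidases work in the other direction, since they make superoxide or hydrogen peroxide on purpose, in phagocytes for killing and in heart and vessel cells for signaling.

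The cells of every library were NMCMs of C57BL/6 mice 1 to 3 days old, enriched by differential adhesion and kept under hypoxia (HO), so both groups share the hypoxia and no normoxic library was used here. The HO + Vehicle group held 3 libraries (V1 to V3) and HO + β-SITO likewise 3 (T4 to T6). The dose of β-SITO and the hours of hypoxia behind these libraries were not stated in the sources used here, and nothing in the labels says that the libraries came from separate cultures, so p-values measure the spread between these libraries, which may be technical. The comparison asks how β-SITO moved the transcripts of these genes in cells that were already hypoxic.

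Total counts ran from 16694734 to 17082129 in the HO + Vehicle group and from 16962152 to 18460522 in the HO + β-SITO group. Names of all HO + β-SITO libraries carry a suffix that the HO + Vehicle names lack, so treatment and any separate preparation of the libraries cannot be told apart. Of 10 cardiomyocyte markers all were detected, and their summed level was 7556 to 8974 CPM (the count relative to the library size, after TMM scaling) in the HO + Vehicle group, 7382 CPM in T4 and 11820 and 11927 CPM in T5 and T6. The sum of 6 fibroblast markers was larger in every library, at 19369 to 20410 CPM and 25518 to 25832 CPM, so the cultures were not of cardiomyocytes alone. The sum of 10 macrophage markers, none of them at 0 in all libraries, went from 1200 to 1320 CPM to between 2626 and 3222 CPM and that of 6 endothelial markers from 190 to 218 CPM to between 767 and 807 CPM. In bulk libraries fewer cells of a type and less RNA per cell cannot be told apart, and the part of these shifts in the results that follow was not tested. For Cybb a ratio to the macrophage markers is given.

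Of the 35 genes, 10 rose with β-SITO, 20 fell and 5 did not pass the test, which was edgeR's quasi-likelihood test at a Benjamini-Hochberg adjusted p under 0.05. Over all 14799 tested genes 33% were higher and 33.8% lower, against 28.6% and 57.1% of the 35. Every later count of genes higher or lower is to be read beside those 33% and 33.8%. With a change of more than 2-fold as well, the definition of a differentially expressed gene (DEG) kept here, Gstm1, Gsta4, Gpx3 and Nox4 were higher and Keap1, Gsr, Txn1, Prdx5, Sod2, Ncf4 and Cybb lower. Those 4 and 7 genes are 11.4% and 20% of the 35, beside 12.8% and 10.1% of all tested genes. For 11 genes every HO + β-SITO library lay above every HO + Vehicle library, and for 20 below, where the shares over all tested genes were 34.8% and 35.8%. The median log2 fold change was -0.33 over the 35 genes and -0.01 over all tested genes, and every class held genes that moved each way. Without T4, whose cardiomyocyte sum was near those of the HO + Vehicle group, all 35 genes kept their direction and their side of the threshold. The same held without T6. Neither is a test of the cell make-up, since T5 or T6, with the higher sums, remained.

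**Figure D1:**
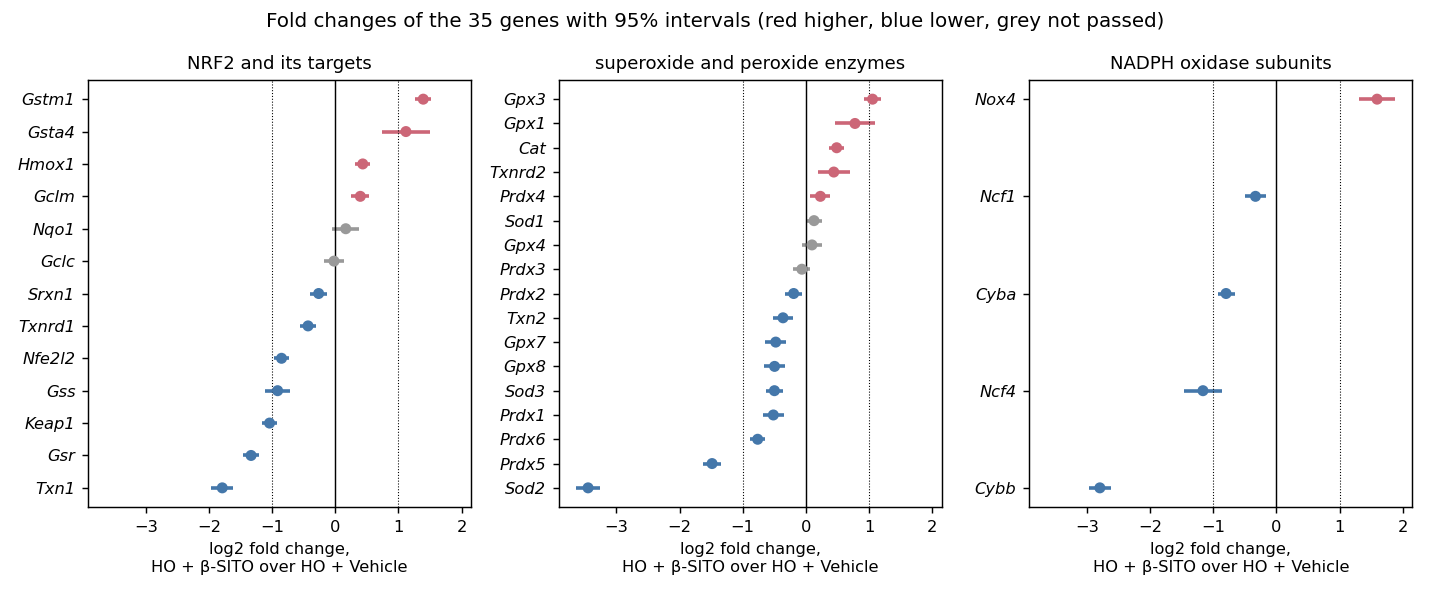
Log2 fold change of each gene, HO + β-SITO over HO + Vehicle (points), with its 95% interval (bars), in 3 panels by class. Dotted lines mark a 2-fold change, red and blue mark genes higher and lower at an adjusted p under 0.05, and grey marks the 5 that did not pass. Sod2 at -3.45 and Cybb at -2.80 lie farthest to the left, and Nox4 at 1.59 and Gstm1 at 1.39 farthest to the right.

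In the NRF2 class both the factor and its inhibitor fell, and the targets did not move together. Of the 13 genes 4 (30.8%) were higher, 7 (53.8%) lower and 2 did not pass (median log2 fold change -0.26). Over all tested genes 33% were higher, a share near that of this class, and 33.8% lower. The summed level of the 13 genes went from between 1216 and 1268 CPM to between 940 and 945 CPM. Nfe2l2 (GRCm39 chr2:75505857-75534985) was measured at 209, 201 and 214 CPM in V1 to V3 and at 118, 118 and 109 CPM in T4 to T6. Keap1 (chr9:21141026-21150657), which holds NRF2 in the cytosol and hands it to the CUL3 ubiquitin ligase, was at 113, 110 and 108 CPM and then at 54.0, 55.5 and 51.6 CPM. Every HO + β-SITO library lay below every HO + Vehicle library for both genes. The log2 fold change was -0.85 ± 0.06 (SE) for Nfe2l2 (edgeR adjusted p = 3.63e-09) and -1.04 ± 0.06 for Keap1 (edgeR adjusted p = 3.67e-10), so Keap1 lay just past the 2-fold line and Nfe2l2 inside it. Keap1 was no longer past that line with upper quartile normalization (-0.90) or with library size alone (-0.89).

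Among the targets used most often as readouts of NRF2, Hmox1 rose and Nqo1 did not pass. Hmox1, heme oxygenase-1, which breaks down heme, was at 168, 168 and 155 CPM in the HO + Vehicle group and 219, 219 and 225 CPM with β-SITO. The groups stood apart, by a log2 fold change of 0.43 ± 0.06 (SE; edgeR adjusted p = 6.44e-06). Nqo1, a quinone reductase, was at 11.6, 14.4 and 13.2 CPM and then at 14.9, 14.7 and 14.4 CPM. The HO + β-SITO values sat at or just above the highest HO + Vehicle value, V2, and the difference of 0.17 on the log2 scale had a 95% interval of -0.05 to 0.38 (edgeR adjusted p = 0.155). Srxn1, sulfiredoxin, which repairs overoxidized peroxiredoxins, fell slightly from 54.2 ± 2.22 to 45.1 ± 0.69 CPM (SD, n = 3; log2 fold change -0.26, edgeR adjusted p = 0.00179), a call that was lost with upper quartile normalization (edgeR adjusted p = 0.1) and with library size alone (0.116).

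Among the glutathione genes Gclm, Gstm1 and Gsta4 rose, Gss and Gsr fell, and Gclc did not pass. Glutamate-cysteine ligase, the rate-limiting enzyme of glutathione synthesis, has a catalytic subunit, Gclc, and a modifier subunit, Gclm. Gclm was at 31.3, 32.3 and 33.4 CPM in the HO + Vehicle group and 41.6, 44.0 and 42.1 CPM with β-SITO, with no overlap and a log2 fold change of 0.40 ± 0.07 (SE; edgeR adjusted p = 9.85e-05). Gclc was at 27.0, 25.9 and 26.5 CPM and then at 26.7, 25.5 and 26.03 CPM. The Gclc libraries overlapped, and the 95% interval of its log2 fold change was -0.18 to 0.13. The ratio of Gclm to Gclc counts, which does not depend on the scaling between libraries, was 1.22 ± 0.05 in the HO + Vehicle group and 1.63 ± 0.09 with β-SITO (SD, n = 3; exact two-sided permutation test, p = 0.1, the smallest that 3 libraries against 3 allow).

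Gss, glutathione synthetase, fell from between 21.8 and 24.8 CPM to between 11.6 and 13.2 CPM, a log2 fold change of -0.91 ± 0.09 (SE; edgeR adjusted p = 2.86e-07). Its span overlaps that of Acss2 on the opposite strand over 76.1% of its length, and the strand setting of the counting was not given. Gsr, glutathione reductase (chr8:34142551-34188191), which uses NADPH to regenerate glutathione, was at 87.6, 88.0 and 86.9 CPM and then at 33.5, 35.2 and 35.4 CPM. The spread within each group was under 2 CPM, and the log2 fold change was -1.33 ± 0.06 (edgeR adjusted p = 2.6e-11).

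Both glutathione transferases among the 35 genes rose. Of transferases on the other lists, Gstp1 (log2 fold change -0.33), Mgst1 (-0.77) and Gsto1 (-0.44) were lower, Gstk1 (1.47), Gstt1 (1.11) and Mgst3 (0.86) higher, and Gsta3 (-0.26) did not pass. Gstm1 (chr3:107919571-107925289), a mu-class enzyme that couples glutathione to electrophiles, was at 62.7, 66.9 and 63.3 CPM in the HO + Vehicle group and 161, 175 and 170 CPM with β-SITO. Its groups did not overlap, and it rose by 1.39 ± 0.06 on the log2 scale (2.63-fold, edgeR adjusted p = 1.43e-11). Gstm1 lies in a cluster of similar mu-class genes whose reads can be shared, and Gstm2, Gstm4, Gstm6 and Gstm7 there were higher too, by log2 fold changes of 0.44, 0.72, 0.68 and 0.87, while Gstm5 (0.13, edgeR adjusted p = 0.172) did not pass. Gsta4, an alpha-class enzyme with a preference for lipid aldehydes, was low in all libraries, at 4.23, 2.88 and 2.54 CPM and then at 7.35, 6.58 and 7.03 CPM. The log2 fold change of Gsta4 was 1.12 ± 0.18 (edgeR adjusted p = 4.67e-05), and 0.996 without V3.

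Of the cytosolic thioredoxin system both members fell. Txn1 (chr4:57943373-57956411), thioredoxin itself, was at 267, 335 and 310 CPM in V1 to V3 and at 94.6, 83.5 and 85.2 CPM in T4 to T6, well below the lowest HO + Vehicle library. The log2 fold change of -1.79 ± 0.08 (SE) makes it 3.46-fold lower (edgeR adjusted p = 2.54e-11). Txnrd1, the selenocysteine reductase that recharges it, fell less, from 154 ± 4.57 to 114 ± 3.72 CPM (SD, n = 3; log2 fold change -0.43, edgeR adjusted p = 6.79e-06). Txn2, the mitochondrial thioredoxin, fell from between 67.6 and 85.1 CPM to between 57.9 and 59.1 CPM (log2 fold change -0.36, edgeR adjusted p = 0.00071), and its reductase Txnrd2 rose from between 7.27 and 9.48 CPM to between 11.3 and 12.4 CPM (0.44, edgeR adjusted p = 0.00382). The ratio of Txn1 to Txn2 counts went from 4.07 ± 0.47 to 1.505 ± 0.11 (SD, n = 3; exact permutation test, p = 0.1).

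**Figure D2:**
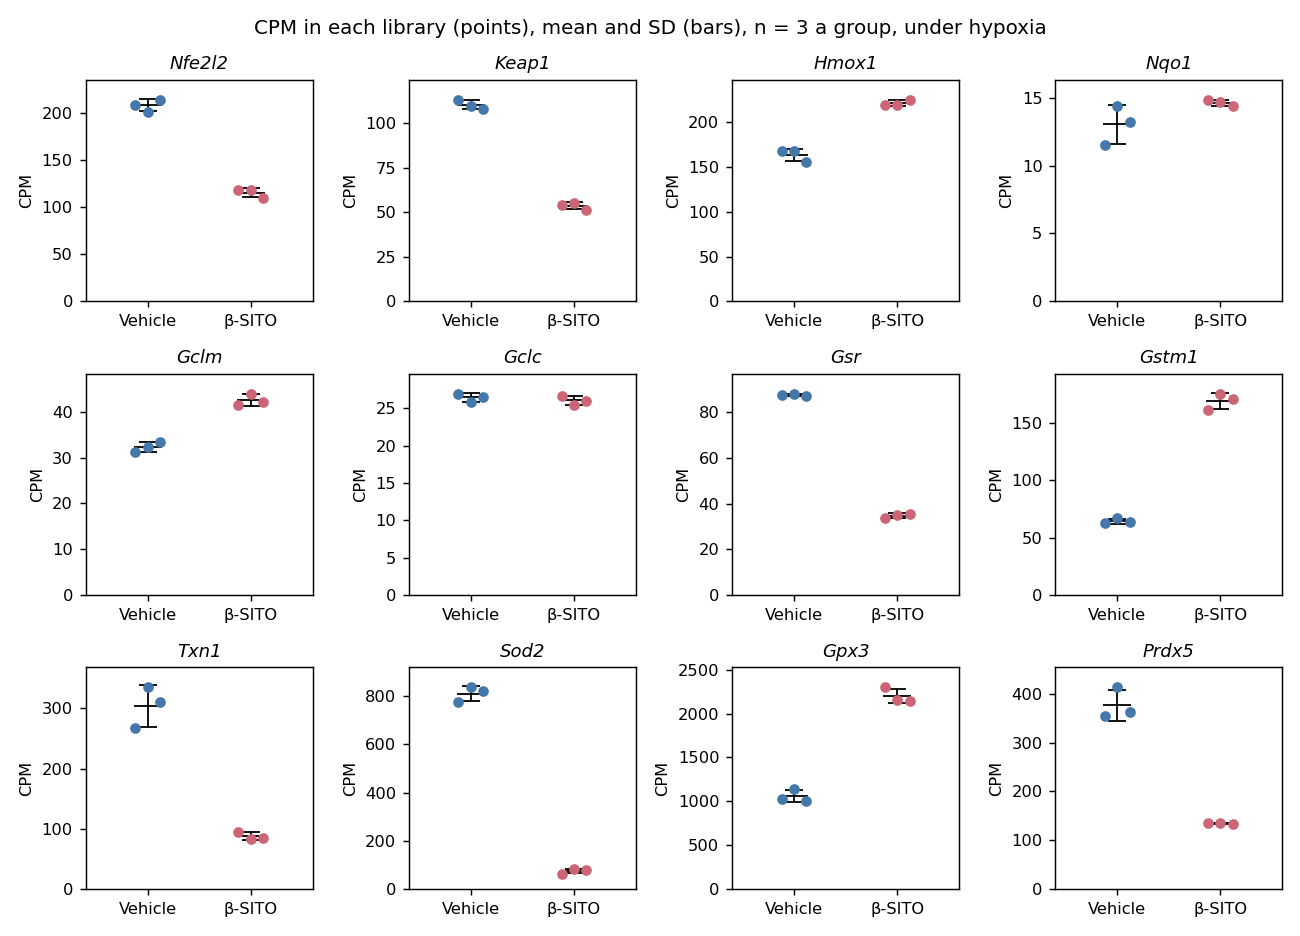
CPM of 12 genes in each library, 3 of the HO + Vehicle group (blue) and 3 of the HO + β-SITO group (red), with the mean and SD as bars, on axes that start at 0. The groups overlap for Gclc, and the means of Nqo1 differ by less than the range of its HO + Vehicle values, while Sod2 drops from between 775 and 836 CPM to between 62.5 and 81.2 CPM and Gpx3 rises to between 2145 and 2298 CPM.

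Promoters were searched for the ARE. Since 13 of the 35 genes were chosen as NRF2 and its targets, the choice is not independent of this element, and its share is a description. RefSeq promoter windows of build GRCm38.p6, 250 bases before to 50 after the start, were matched by symbol for 28 of the 35 genes, and Gsta4, Hmox1, Gclc, Gsr, Sod3, Prdx6 and Ncf4 had no entry. The ARE core TGACNNNGC was searched on both strands and found in 6 of the 28 genes (21.4%), against 14% of the 27025 genes of the table. These 6 went in different directions: Gclm was higher, Nfe2l2, Prdx1, Srxn1 and Txnrd1 were lower and Sod1 did not pass. The 250 bases before the start are printed for 3 of them, 5′ to 3′ on the strand of the gene, because the same core stands upstream of a gene that rose and of 2 that fell. Txnrd1 has further starts, whose windows lack the core. Capitals mark the core, which in all 3 lies on the opposite strand and therefore reads as its reverse complement. The match begins 134 bases before the start in Gclm (chr3:122245307-122245556), 92 in Txnrd1 (chr10:82858956-82859205) and 133 in Prdx1 (chr4:116685349-116685598), all on the plus strand.
Gclm: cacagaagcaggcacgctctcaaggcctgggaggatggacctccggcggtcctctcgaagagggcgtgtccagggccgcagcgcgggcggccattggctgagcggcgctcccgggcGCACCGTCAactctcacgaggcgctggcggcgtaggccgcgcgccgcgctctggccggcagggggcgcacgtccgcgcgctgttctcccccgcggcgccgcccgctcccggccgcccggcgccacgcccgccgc
Txnrd1: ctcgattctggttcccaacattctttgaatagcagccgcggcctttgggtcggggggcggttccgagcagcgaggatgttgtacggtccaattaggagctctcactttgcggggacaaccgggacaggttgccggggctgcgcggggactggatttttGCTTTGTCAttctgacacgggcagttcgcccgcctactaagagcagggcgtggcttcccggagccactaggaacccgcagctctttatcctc
Prdx1: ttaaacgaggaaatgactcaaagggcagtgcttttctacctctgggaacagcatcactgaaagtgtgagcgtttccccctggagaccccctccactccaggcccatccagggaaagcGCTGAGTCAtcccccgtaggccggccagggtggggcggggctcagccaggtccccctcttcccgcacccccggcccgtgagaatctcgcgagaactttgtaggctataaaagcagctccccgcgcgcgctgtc
A match is a description of letters and does not show a bound site.

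Other genes around NRF2 were taken from lists written for this comparison, and their counts stand beside 33% higher and 33.8% lower over all tested genes. Of 10 partners and regulators none was higher and 8 (80%) were lower, and the median log2 fold change was -0.46. The largest decreases were those of Nfe2l1 (-1.43), a factor related to NRF2, Bach1 (-1.17), a repressor at AREs, and Maff (-1.15), a small MAF partner, so activator and repressor fell together. Of 21 tested further targets 7 (33.3%) were higher, a share near that of all genes, and 10 (47.6%) lower, and the median was -0.26. The ferritin chains parted, with the light chain Ftl1 up from 187 ± 24.7 to 539 ± 16.9 CPM and the heavy chain Fth1 down from 5871 ± 427 to 1714 ± 81.7 CPM (SD, n = 3). Slc7a11, the cystine importer that feeds glutathione synthesis, went from 12.5 ± 1.52 to 2.94 ± 0.34 CPM, a log2 fold change of -2.09 (edgeR adjusted p = 4.53e-09), and G6pdx, an NADPH source, changed by -1.02. Osgin1 (0.73) and the carbonyl reductase Cbr1 (0.70) were higher.

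The superoxide and peroxide enzymes were led by a fall of Sod2 and a rise of Gpx3. Of the 17 genes 5 (29.4%) were higher, 9 (52.9%) lower and 3 did not pass, with a median log2 fold change of -0.19. The shares over all tested genes were 33% and 33.8%, so the higher share is near that of all genes. The summed level of the 17 genes went from between 4135 and 4655 CPM to between 4077 and 4225 CPM.

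Sod2 (chr17:13225733-13258950), the manganese superoxide dismutase of the mitochondrial matrix, was at 775, 836 and 821 CPM in V1 to V3 and at 62.5, 81.2 and 79.0 CPM in T4 to T6. The HO + β-SITO libraries were all far under the lowest HO + Vehicle library, and T4 was the lowest. Sod2 fell by 3.45 ± 0.09 (SE) on the log2 scale and was 10.9-fold lower, the largest change among the 35 genes (edgeR adjusted p = 2.55e-14). Across 14 alternatives the log2 fold change of Sod2 was -3.49 to -3.30. Sod3, the secreted dismutase of the extracellular matrix, fell from 311, 311 and 286 CPM to 201, 225 and 216 CPM, without overlap (log2 fold change -0.50 ± 0.06, edgeR adjusted p = 4.25e-06). Sod1, the cytosolic copper-zinc enzyme, was at 96.6, 109 and 100.04 CPM and then at 116, 110 and 108 CPM, so V2 lay among the HO + β-SITO libraries. The 95% interval of the Sod1 log2 fold change was -0.00446 to 0.26 (edgeR adjusted p = 0.0811), and without V2 it passed at 0.18 (adjusted p = 0.0252). The copper chaperone that loads Sod1, Ccs, was higher, at 23.8 ± 0.34 against 19.2 ± 1.40 CPM (SD, n = 3; log2 fold change 0.31, edgeR adjusted p = 0.00376).

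Catalase, the peroxisomal enzyme that splits hydrogen peroxide without using glutathione or thioredoxin, rose from 62.8, 62.9 and 64.2 CPM to 86.6, 89.6 and 90.1 CPM. The groups did not overlap, and the log2 fold change of Cat was 0.49 ± 0.06 (SE; edgeR adjusted p = 1.94e-06).

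Of the 5 glutathione peroxidases 2 rose, 2 fell and Gpx4 did not pass. Gpx3 (chr11:54793279-54801203), the secreted selenoenzyme found in plasma, was the most abundant of the 35 genes and rose from 1030, 1140 and 1006 CPM to 2298, 2160 and 2145 CPM. The lowest HO + β-SITO library was thus well over the highest HO + Vehicle library, with a log2 fold change of 1.06 ± 0.07 (SE; 2.08-fold, edgeR adjusted p = 1.16e-09). Gpx1, the cytosolic form, rose from between 3.98 and 4.83 CPM to between 6.63 and 8.07 CPM (log2 fold change 0.78 ± 0.14, edgeR adjusted p = 0.000218). An unnamed long noncoding RNA gene on the opposite strand covers 84% of the Gpx1 span and is listed at 0 in all libraries, and reads that fall in both genes may not have been assigned to either, so the level of Gpx1 is uncertain. Gpx4, which reduces lipid peroxides and is a brake on ferroptosis, was at 188, 233 and 192 CPM and then at 216, 212 and 226 CPM. V2 was above all HO + β-SITO libraries for Gpx4, the 95% interval of the log2 fold change was -0.06 to 0.26, and without V2 the gene passed at 0.20 (edgeR adjusted p = 0.00958). Its processed copy Gpx4-ps2 held 539 to 614 counts and 669 to 756 counts in the groups, and reads of these near-identical sequences can be split between them.

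Gpx7 and Gpx8, peroxidases of the endoplasmic reticulum that lack selenocysteine, fell alike. Gpx7 went from between 77.9 and 95.7 CPM to between 58.9 and 62.2 CPM, and Gpx8 from between 99.4 and 117 CPM to between 71.2 and 86.3 CPM. Neither gene had an overlap between the groups, and the log2 fold changes were -0.48 ± 0.08 (SE; edgeR adjusted p = 5.08e-05) and -0.50 ± 0.08 (edgeR adjusted p = 5.09e-05). The Gpx8 span lies within that of Cdc20b on the other strand, which had no counts in any library.

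The peroxiredoxins mostly fell, with Prdx5 in front. Prdx5 (chr19:6884065-6887474), found in mitochondria, peroxisomes and cytosol, was at 354, 414 and 363 CPM in the HO + Vehicle group and at 135, 136 and 133 CPM with β-SITO. The HO + β-SITO libraries were nearly equal and far below the others, and Prdx5 was 2.80-fold lower (log2 fold change -1.49 ± 0.07, edgeR adjusted p = 2e-11). Prdx6, a 1-cysteine enzyme with phospholipase activity, went from 192, 196 and 194 CPM to 112, 114 and 116 CPM (-0.76 ± 0.05, edgeR adjusted p = 5.52e-09). Prdx1, the main cytosolic form, fell from between 493 and 622 CPM to between 381 and 413 CPM (-0.52 ± 0.08, edgeR adjusted p = 2.46e-05).

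Prdx2, also cytosolic, was at 233, 261 and 233 CPM and then at 205, 213 and 217 CPM, lower by a small margin in every library. Its log2 fold change of -0.19 (edgeR adjusted p = 0.012) no longer passed without V2 (adjusted p = 0.0558), without T5 (0.0677) or with upper quartile normalization (0.495). The Prdx2 end overlaps Junb on the other strand over 6.69% of its span, and Junb fell by 1.63 on the log2 scale. Prdx3, the mitochondrial form, was at 69.0, 77.5 and 72.5 CPM and then at 68.9, 71.5 and 69.3 CPM, overlapping, with a 95% interval of -0.20 to 0.07. Prdx4, which oxidizes proteins in the endoplasmic reticulum, was the sole peroxiredoxin of the 6 that rose, from 68.0, 83.4 and 77.8 CPM to 88.4, 94.3 and 86.1 CPM (0.23 ± 0.07, edgeR adjusted p = 0.0124).

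The make-up of the families was compared by shares, which do not depend on scaling between libraries. Counts were divided by the median length of each gene's protein-coding transcripts, since longer transcripts give more reads. Sod2 held 36.6% ± 0.86 of the superoxide dismutase sum in the HO + Vehicle group and 5.20% ± 0.75 with β-SITO (SD, n = 3), and Sod1 held 42.0% ± 0.89 and then 71.3% ± 2.20. With this length Sod3 stayed between 20.5% and 24.5% in the 6 libraries, but its mean share rose with β-SITO under the other choices. It went from 24.9% to 53.6% without a length and from 43.1% to 61.7% with the union of all annotated exons. Which dismutase led depended on the length used: without a length Sod2 led the HO + Vehicle group at 66.7% and Sod3 the HO + β-SITO group at 53.6%, and the share of Sod2 fell under all 3 choices.

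Gpx3 made up 59.9% ± 1.27 and then 77.6% ± 0.57 of the glutathione peroxidase sum, while Gpx4 went from 19.2% to 12.8%, Gpx7 from 9.39% to 4.22% and Gpx8 from 11.01% to 4.85%. Prdx5 made up 39.8% ± 0.86 and then 23.1% ± 0.06 of the peroxiredoxin sum. Prdx1 made up 28.3% ± 1.36 and then 32.3% ± 1.08, and Prdx4 went from 6.15% to 11.7%. Whether Prdx5 or Prdx1 led the HO + Vehicle group depended on the length, since Prdx1 led there without one (36.9% against 24.7%) and with the union of exons (32.7% against 31.1%), while the share of Prdx5 fell under all 3 choices. Apart from Sod3, each share above that was scaled by the median transcript length had no overlap between the groups. That is the exact permutation p of 0.1, the smallest that the design allows. For Sod3 the groups overlapped with that length, at 22.7% in V1 and 21.9% in T4 (exact permutation test, p = 0.2).

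**Figure D3:**
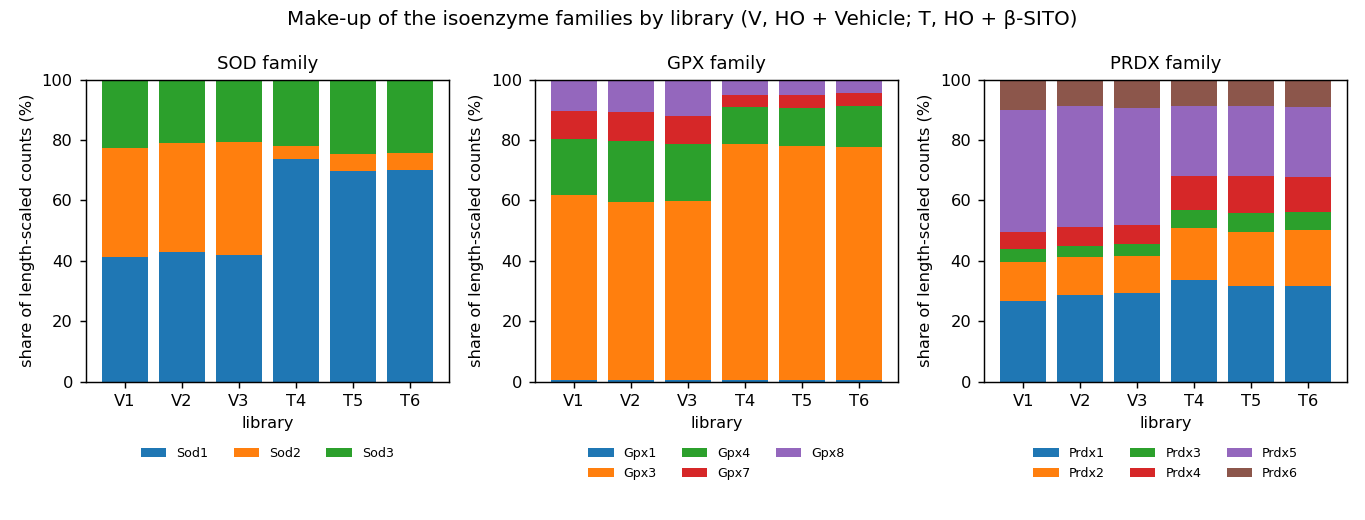
Shares of the length-scaled counts (%, stacked bars that add up to 100) in each of the 6 libraries for the superoxide dismutases, glutathione peroxidases and peroxiredoxins. Sod2 (orange, left) shrinks from 36.1% to 37.6% in V1 to V3 to between 4.34% and 5.64% in T4 to T6, Gpx3 (orange, middle) grows to between 77.1% and 78.2%, and Prdx5 (purple, right) shrinks to between 23.1% and 23.2%.

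Levels of different genes were set side by side as CPM per kilobase of the median protein-coding transcript, a length chosen after the data were seen, and the order holds for this length only, as the peroxiredoxin shares show. Gpx3 was highest in both groups, at 664 ± 44.9 and 1381 ± 53.1 (SD, n = 3). In the HO + Vehicle group Prdx5 (499 ± 42.4), Prdx1 (356 ± 41.3) and Txn1 (289 ± 32.8) followed, and in the HO + β-SITO group Prdx1 (249 ± 10.05), Gpx4 (228 ± 7.51) and Prdx5 (178 ± 2.08). Neighbours such as Sod1 (159 ± 9.80) and Prdx2 (157 ± 10.7) in the HO + Vehicle group, or Prdx5 and Sod1 (174 ± 6.97) in the HO + β-SITO group, did not differ beyond their SD. Sod2 moved from place 9 to place 26 of the 35, Txn1 from 4 to 12 and Gstm1 from 18 to 6. Nox4 was lowest in both groups, at 1.45 ± 0.10 and 4.39 ± 0.51.

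Cell compartment and chemistry were also set against the direction of change. The 5 mitochondrial enzymes (Sod2, Prdx3, Prdx5, Txn2 and Txnrd2) summed to between 1280 and 1420 CPM in the HO + Vehicle group and between 336 and 359 CPM with β-SITO, with 3 lower, Txnrd2 higher and Prdx3 not passed. Most of that drop came from Sod2 (mean 811 to 74.2 CPM) and Prdx5 (377 to 135 CPM), and Prdx5 is also found in peroxisomes and cytosol. Of 5 selenocysteine enzymes (Gpx1, Gpx3, Gpx4, Txnrd1 and Txnrd2) 3 were higher, Txnrd1 was lower and Gpx4 did not pass. Over all tested genes 33% were higher and 33.8% lower. The secreted enzymes parted, Gpx3 being higher and Sod3 lower.

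The NADPH oxidase class fell, apart from Nox4. Of the 5 genes 4 (80%) fell and 1 (20%) rose, beside 33.8% and 33% of all tested genes. The median log2 fold change was -0.80, and the summed level went from between 588 and 629 CPM to between 205 and 230 CPM. The 4 that fell belong to the NOX2 complex of phagocytes: CYBB (NOX2) and CYBA (p22phox) form the membrane core that passes electrons to oxygen, and cytosolic subunits, NCF1 (p47phox) and NCF4 (p40phox) among them, join it with RAC. Nox4 encodes a catalytic subunit that uses CYBA, needs no cytosolic subunit and makes mainly hydrogen peroxide.

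Cybb (chrX:9301491-9354010) was at 341, 356 and 392 CPM in V1 to V3 and at 57.8, 51.9 and 47.2 CPM in T4 to T6. All HO + β-SITO libraries were far below all HO + Vehicle libraries, and Cybb was 6.95-fold lower, a log2 fold change of -2.80 ± 0.08 (SE; edgeR adjusted p = 8.8e-14). Cyba (chr8:123151515-123159669) was at 168, 184 and 164 CPM and then at 103, 99.7 and 94.5 CPM. It too had no overlap, and changed by -0.80 ± 0.06 (edgeR adjusted p = 2.06e-08). The ratio of Cybb to Cyba counts therefore went from 2.12 ± 0.24 to 0.53 ± 0.03 (SD, n = 3; exact permutation test, p = 0.1), so the pair did not fall to the same degree.

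The cytosolic subunits Ncf4 and Ncf1 both fell, by different amounts. Ncf4 (chr15:78129001-78146780) was at 18.1, 17.2 and 14.0 CPM and then at 8.94, 6.63 and 6.35 CPM, with a log2 fold change of -1.16 ± 0.14 (SE; edgeR adjusted p = 2.24e-06). Ncf1 (chr5:134248907-134258479) was at 56.0, 59.2 and 55.0 CPM and then at 49.6, 40.9 and 44.6 CPM, with no overlap and a smaller change of -0.33 ± 0.08 (edgeR adjusted p = 0.00114). With library size alone the Ncf1 change was -0.18 (edgeR adjusted p = 0.0445). The Ncf1 span overlaps that of Gtf2ird2 on the opposite strand over 44.9% of its length, and the strand setting of the counting was not given. Gtf2ird2 changed by -0.23 and did not pass (edgeR adjusted p = 0.103). From a list of other oxidase genes, Cybc1, a chaperone for the CYBB and CYBA pair, went from 94.8 ± 2.55 to 37.9 ± 1.45 CPM (-1.32, edgeR adjusted p = 3.55e-11), and Rac2, the RAC of blood cells, from 65.2 ± 7.42 to 33.9 ± 3.54 CPM (-0.94, edgeR adjusted p = 2.2e-07). Rac1, Rap1a and Noxo1 from that list did not pass.

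Nox4 (chr7:86895304-87047918) was at 4.36, 3.82 and 4.03 CPM in the HO + Vehicle group and at 11.05, 13.9 and 12.02 CPM in T4 to T6. The lowest HO + β-SITO library was above the highest HO + Vehicle library, and Nox4 rose by 1.59 ± 0.13 (SE) on the log2 scale (3.02-fold, edgeR adjusted p = 4.22e-08). Of the length-scaled sum of Cybb and Nox4, Nox4 made up 1.87% ± 0.22 in the HO + Vehicle group and 28.6% ± 3.63 with β-SITO (SD, n = 3; exact permutation test, p = 0.1). With β-SITO this share was 19.2% without a length and 14.0% with the union of exons, against 1.11% and 0.766% in the HO + Vehicle group. T4 had the lowest Nox4 share of its group, 24.4%, against 31.2% and 30.1% in T5 and T6.

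Macrophages are the cells in heart cultures best known for NOX2, so their markers are given beside it. Of 10 macrophage markers 8 (80%, against 33% of all tested genes) were higher with β-SITO. Fcgr1 was lower (log2 fold change -2.18) and Adgre1 (F4/80) did not pass at -0.06. Cybb counts were 0.289 ± 0.022 of the summed macrophage markers in the HO + Vehicle group and 0.019 ± 0.001 with β-SITO (SD, n = 3; exact permutation test, p = 0.1), so Cybb fell while the marker sum rose. Lyz2, at a mean of 647 and then 1408 CPM, was the largest part of that sum, and Adgre1 was at 152 and then 145 CPM. The ratio therefore depends on the markers chosen and does not measure the number of macrophages. Mrc1, a marker of resident macrophages, went from between 10.8 and 12.9 CPM to between 295 and 385 CPM. Of 8 neutrophil markers, a second cell type rich in NOX2, 1 was tested, Camp, which was lower, and their sum was 2.79 to 3.07 CPM in the HO + Vehicle group and 1.04 to 2.16 CPM with β-SITO, with Ly6g at 0 in all libraries.

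**Figure D4:**
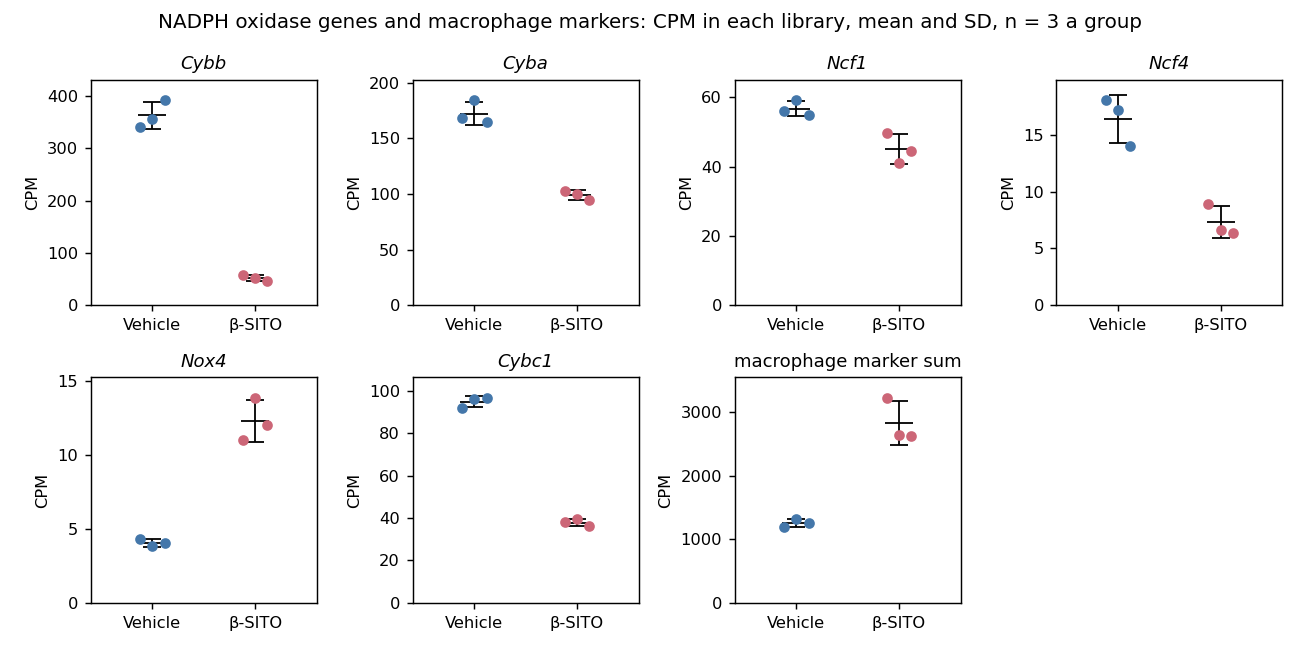
CPM in each library (points; blue HO + Vehicle, red HO + β-SITO), with the mean and SD of 3 libraries a group, for 6 NADPH oxidase genes and for the sum of 10 macrophage markers. Cybb, Cyba, Ncf1, Ncf4 and Cybc1 are lower in every HO + β-SITO library, while Nox4 and the macrophage marker sum are higher in every HO + β-SITO library.

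The promoters of this class were searched for an interferon-stimulated response element (ISRE), written as GAAA and GAAA with 2 bases of any kind between them, the letters that interferon regulatory factors recognize. Of the 28 genes with a window Cybb and Ncf1 held it (7.14%), against 3.99% of the 27025 genes of the table. Cybb had 3 matches, which begin 168, 124 and 29 bases before the start, and Ncf1 had 1, which begins 82 bases before it. Both windows are printed because they are the only ones among the 28 with these letters. Both genes fell, as did 57.1% of the 35 genes. A match does not show a bound site, and a link between these letters and the fall was not tested. Capitals mark each match, read on either strand, in the 250 bases before the start of Cybb (GRCm38.p6 chrX:9469325-9469574, minus strand) and of Ncf1 (chr5:134229626-134229875, minus strand).
Cybb: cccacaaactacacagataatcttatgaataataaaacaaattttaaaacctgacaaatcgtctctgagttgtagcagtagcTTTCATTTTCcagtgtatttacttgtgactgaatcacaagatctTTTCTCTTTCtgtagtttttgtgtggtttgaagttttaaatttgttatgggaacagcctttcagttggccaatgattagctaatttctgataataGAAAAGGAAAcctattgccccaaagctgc
Ncf1: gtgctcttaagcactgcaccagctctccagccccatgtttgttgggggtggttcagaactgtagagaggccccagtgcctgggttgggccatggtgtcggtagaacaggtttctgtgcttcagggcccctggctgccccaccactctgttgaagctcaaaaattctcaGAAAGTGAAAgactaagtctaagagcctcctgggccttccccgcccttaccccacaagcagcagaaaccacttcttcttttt
The matches do not overlap with those of the other motifs. A κB-type motif, GGGA and CC with 4 bases of any kind between them, was found on either strand in 10 of the 28 genes (35.7%) and in 22.9% of all genes of the table, and of these 10 genes 3 were higher, 5 lower and 2 did not pass. The window of Sod2 held none of the 3 motifs, which says only that these letters are not in those 300 bases.

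On the list of further glutathione and thioredoxin genes 12 of 21 tested genes (57.1%) were higher and 5 (23.8%) lower, where the shares over all tested genes were 33% and 33.8%. The median log2 fold change was 0.33, and its difference from that of the 35 genes was not tested. The largest increases were those of Sesn1 (1.94), a stress-induced sestrin, Ggt5 (1.71), which cleaves extracellular glutathione conjugates, and Txnip (1.53), the protein that binds and inhibits thioredoxin. Txnip went from 268 ± 15.1 to 775 ± 42.3 CPM (SD, n = 3; edgeR adjusted p = 1.13e-11), beside the fall of Txn1. Ggct (-2.67), which breaks down gamma-glutamyl peptides, and Glrx (-1.75), glutaredoxin, had the largest decreases, followed by Gsto1 (-0.44). Nnt, a mitochondrial source of NADPH, held 2 to 7 counts a library in its main entry and 0 in all libraries in a further entry. Neither entry was tested.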

How the data were processed

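RNA from 6 libraries of hypoxic NMCMs was sequenced as paired-end reads, and FastQC, HISAT2 and featureCounts with genome build GRCm39 are named in the submitters' processing notes. The paper names an ABclonal kit and the labels an Illumina kit, and strand and multi-mapping options were not given. The authors deposited raw counts per gene, whole numbers without normalization.

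From these counts, genes were filtered with filterByExpr, scaled by TMM (factors 0.945 to 0.956 and 1.05 to 1.06) and tested with edgeR 4.0.16 in R 4.3.3 (quasi-likelihood F test with the group as the only term, Benjamini-Hochberg adjustment over 14799 genes). A gene passed at an adjusted p under 0.05 and was a DEG when it also changed by more than 2-fold. The biological coefficient of variation was 6.52%. The code was tested on simulated data. Alternatives were DESeq2 1.42.0, limma-voom (limma 3.58.1), glmTreat, other normalizations and filters, and leaving out each library. Shares were tested by exact two-sided permutation.

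The deposited table gives no transcript length, so lengths were taken from GENCODE vM21, a choice made after seeing the data. They are medians over the protein-coding transcripts of each gene, and that annotation, made on another build, was used for lengths only. Promoter letters come from RefSeq, GRCm38.p6, and no coordinate was converted.

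The 35 genes, the pathway lists and the marker lists were chosen with earlier results of these data known. All 35 genes are named, and of each pathway list the 3 tested genes with the largest change in each direction among those that passed, together with overlapping genes and markers. A gene chosen by this rule is not reported here. Gstm1 neighbours, Gpx4-ps2, Ccs, Nnt, Mrc1, Rac1, Rap1a, Noxo1, Gstp1, Mgst1, Gstk1, Gstt1, Mgst3 and Gsta3 were picked after their values were seen. Of 6 fibroblast markers 3 were higher and 2 lower, of 10 cardiomyocyte markers 4 and 2, all 6 endothelial and all 4 smooth muscle markers were higher, and the macrophage and neutrophil lists are given with the results.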

Additional observations from a re-analysis of the deposited data

How the results depend on the processing

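Of 490 log2 fold changes recomputed under 14 alternatives for the 35 genes, 469 kept their direction and their side of the threshold. All 35 did so with DESeq2, limma-voom, DESeq2 size factors, both other filters, without mitochondrially encoded genes, and with T4 or T6 alone left out. The 10 genes higher and 20 lower became 10 to 12 and 19 to 20 with each library left out in turn, and the DEGs 3 to 4 higher and 7 lower. Against a 2-fold change with glmTreat, a stricter test by construction, 2 genes were higher (Gstm1 and Nox4) and 5 lower (Gsr, Txn1, Prdx5, Sod2 and Cybb). Upper quartile normalization and library size alone moved the median of all genes to 0.14 (log2), and 61.4% and 61.8% of all calls were then higher, against 49.4%. Nqo1, Sod1 and Gpx4 then passed as higher, Prdx2 and Srxn1 no longer passed, and the lower DEGs were 6, without Keap1. Genes that had not passed changed sign: Gclc was 0.12 and 0.13 and Prdx3 0.079 and 0.085 under these 2 settings, and Gclc ranged from -0.038 to 0.025 with each library left out. The cause was not tested.

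Differences in share, in percentage points, depended on the length. Without a length and with the union of exons they were -48.2 and -35.2 for Sod2 (-31.4 as reported), 13.3 and 16.05 for Gpx3 (17.7), -11.4 and -14.3 for Prdx5 (-16.7) and 18.04 and 13.2 for Nox4 (26.7). Gpx1, at -0.0054 without a length, reversed. Leaving out each library gave -31.7 to -30.9, 17.2 to 18.4, -17.2 to -16.4 and 25.4 to 28.8.

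No paired analysis was possible because the replicate numbers of the groups, 1 to 3 and 4 to 6, share none. With 3 libraries a group, no exact test of a single value can go below p = 0.1, and the library name suffix, a dose that is not stated and the lack of normoxic libraries in use here limit what the comparison can say.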
